A study of Mus musculus with 10 samples.

Results

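The cytosolic ribosomal protein genes of mouse muscle stem cells are described here, in cells cultured with Tubastatin A, in cells cultured with its solvent and in cells taken fresh from muscle. Genes were chosen by symbol alone: Rpl or Rps followed by a digit, together with Rplp0, Rplp1, Rplp2 and Rpsa, leaving out the Rps6k kinases and symbols with -ps. This gave 86 of the 12803 genes measured. Of these, 77 encode core proteins of the ribosome: 43 of the large subunit, 31 of the small subunit and 3 of the stalk. A further 8 are paralogs or near copies of core genes, and Rps19bp1 carries such a name but encodes a binding partner of the small-subunit protein Rps19. The rule itself uses no measured level, though it was set with earlier results of these data known, and no member was left out for a low level.

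The study profiled muscle stem cells, the resident progenitors that rebuild muscle fibres, from limb muscles of young male C57BL/6 mice. Sorting kept VCAM+ cells and removed those with CD45, CD31 or Sca1. Tubastatin A is a hydroxamic acid that inhibits HDAC6, a mainly cytoplasmic deacetylase of tubulin. Its cells spent 24 h in culture at 40 µM of the compound, dissolved in DMSO (n = 4). Vehicle cells spent 24 h with DMSO alone (n = 3), and fresh cells were taken at 0 h (n = 3). Both cultures were in Ham's F-10 medium with 10% horse serum on plates coated with extracellular matrix. Each library holds the cells of 1 animal. Culture and time differ together between cultured and fresh cells. Poly(A) RNA was sequenced, so the values are messenger levels and say nothing of protein or of ribosome number.

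Ribosomal proteins make up the protein part of the ribosome, arranged around ribosomal RNA in a small subunit that reads the message and a large subunit that joins amino acids. Each mature ribosome holds most of them in single copy, the acidic stalk proteins being the exception, and their messengers carry a pyrimidine tract at the cap, the terminal oligopyrimidine (TOP) motif, through which the kinase mTORC1 and the protein LARP1 set their translation. Resting muscle stem cells are small and make little protein, and they enlarge as they leave quiescence.

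The starts of the following genes show what a TOP start looks like and which members lack one at the annotated start. The windows are RefSeq's, on GRCm38.p6 (the assembly also called mm10). Each runs 5′ to 3′ on the gene's strand, with 10 bases before the annotated start and 20 from it on. Capitals mark at least 6 pyrimidines in a row, counted from a C within 10 bases of the start; bases before the window were not read.
Rps6 (chr4:86857348-86857377, minus strand): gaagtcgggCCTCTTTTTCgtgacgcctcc
Rplp2 (chr7:141447641-141447670, plus strand): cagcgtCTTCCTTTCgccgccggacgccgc
Rpl38 (chr11:114668570-114668599, plus strand): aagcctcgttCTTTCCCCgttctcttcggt
Rpl31 (chr1:39367841-39367870, plus strand): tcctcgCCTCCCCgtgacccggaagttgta
Rps27 (chr3:90213629-90213658, minus strand): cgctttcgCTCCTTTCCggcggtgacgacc
Rps27rt (chr9:114982720-114982749, minus strand): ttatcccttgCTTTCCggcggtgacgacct
Rps27l (chr9:66946076-66946105, plus strand): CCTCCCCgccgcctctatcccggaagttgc
Rpl22 (chr4:152325716-152325745, plus strand): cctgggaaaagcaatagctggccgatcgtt
Rpl22l1 (chr3:28805498-28805527, plus strand): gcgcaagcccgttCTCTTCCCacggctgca
Rplp0 (chr5:115559457-115559486, plus strand): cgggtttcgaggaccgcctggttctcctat

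Rps6, Rplp2, Rpl38, Rpl31, Rps27 and Rps27rt have such a run at their annotated start, and in Rpl38 and Rps27rt it begins exactly there. Rps27rt shares the end of the run and the bases after it with Rps27. In Rpl22l1 the run lies within the transcript, in Rps27l it ends before the start, and Rpl22 and Rplp0 show none in this window. RefSeq windows matched 65 of the 86 members, 57 of them core genes, among 27025 genes with a window, and the first listed was used for the 9 members with several. A run of this kind stood in 49.1% of the core genes and in 19.2% of all genes. The stricter form, a C at the annotated start followed by at least 4 pyrimidines, stood in 21.1% of core genes and 2.49% of all genes. The letters CTTCCGG on either strand, a core motif of ETS factors that can overlap a pyrimidine run, stood in 40.4% of core windows of 250 bases before to 50 after the start, against 9.12% of all windows. Annotated starts can lie some bases off the true cap site, so a missing run says only that these letters are not in this window.

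Values are the authors' RPKM, in which reads are divided by gene length in kilobases and by a scaled library size. Changes are differences of log2(RPKM + 1), which understate folds at low levels, with the standard error (SE) and the Benjamini-Hochberg adjusted p of limma over all 12803 genes; a gene passed when this p was under 0.05. Reads counted to genes numbered between 37.5M and 55.3M a library. Reads in the table over the library size the authors scaled by were 0.829 to 0.928 in cultured and 1.39 to 1.41 in fresh libraries, so levels set between cultured and fresh cells depend on that scaling. Muscle stem cell markers summed to 281 to 299.9 RPKM in Tubastatin A, 452 to 477 in vehicle and 1944 to 2141 in fresh libraries, 8 of 8 being measured. The 10 measured markers of other muscle cells summed to 4.73, 4.90 and 5.48 RPKM in Tubastatin A libraries 1, 3 and 4 and to 313 in library 2, against 15.5 to 24.0 RPKM in vehicle and 90.7 to 124.9 in fresh libraries. Acta1, the actin of muscle fibres, gave 311 RPKM of the sum in Tubastatin A library 2. Without this library 65 members in place of 69 were lower in Tubastatin A than in vehicle. The count over all genes without it is not given here. Acta1 also gave 14.7, 22.8 and 14.8 RPKM of the vehicle sums, and 3.28, 3.18 and 3.89 RPKM in Tubastatin A libraries 1, 3 and 4. The order of the cultured sums follows this gene and does not rank these groups by other cell types. In such bulk samples fewer cells of a type and less RNA per cell cannot be told apart.

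Ribosomal protein messengers were among the most abundant of these cells. The core genes had a median of 117 RPKM over the 10 libraries, and 72 of 77 stood at 20 RPKM or more. Rplp0, the scaffold of the stalk, had the highest mean of the members at 891 RPKM and ranked 18 among all genes. Low levels were found for Rpl24 (1.08 RPKM), Rps10 (1.77), Rpl36al (2.39) and Rpl13a (6.17), whose exons share 47.0%, 20.6%, 24.5% and 35.4% of their bases with other annotated genes of the same strand. In all, 28 members share some exon bases with another gene on their strand, and members also have processed pseudogenes elsewhere in the genome. Whether the authors' counting kept reads that fit several places is not given in the sources used here, so the levels of these genes are uncertain.

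The 86 members took up 3.41%, 3.71%, 4.51% and 3.66% of all RPKM in the Tubastatin A libraries, 5.25%, 6.09% and 7.02% in the vehicle libraries and 2.12%, 3.41% and 2.66% in the fresh libraries. Every vehicle library lay above every other, and the lowest Tubastatin A library and the highest fresh library met at 3.41%. The mean share was 0.625 times as large in Tubastatin A (3.82% ± 0.476, SD, n = 4) as in vehicle (6.12% ± 0.887, n = 3), and 2.24 times as large in vehicle as in fresh cells (2.73% ± 0.646, n = 3). The share in Tubastatin A was 1.40 times that in fresh cells. Summed RPKM of the members, without division by the library's total, was 0.838 times as large in Tubastatin A as in fresh cells, so the 2 ways of scaling put this pair in opposite order. The total itself was 235100 to 257100 RPKM in Tubastatin A, 254900 to 278000 in vehicle and 392700 to 436300 in fresh libraries.

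Both subunits moved together, but not by exactly equal amounts. Summed RPKM of the small-subunit genes was 0.697 to 0.701 times that of the large-subunit genes in Tubastatin A, 0.732 to 0.739 times in vehicle and 0.670 to 0.680 times in fresh libraries. The groups did not overlap in this ratio, which no scaling of a library can alter. Its spread within groups was far smaller than that of the shares. The stalk genes, also of the large subunit, are not in the large-subunit sum. Counted with them, Tubastatin A and fresh libraries overlapped in the ratio, and vehicle libraries stayed highest. The 3 stalk genes took 0.408% to 0.512% of RPKM in Tubastatin A, 0.567% to 0.776% in vehicle and 0.209% to 0.367% in fresh libraries.

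**Figure D1:**
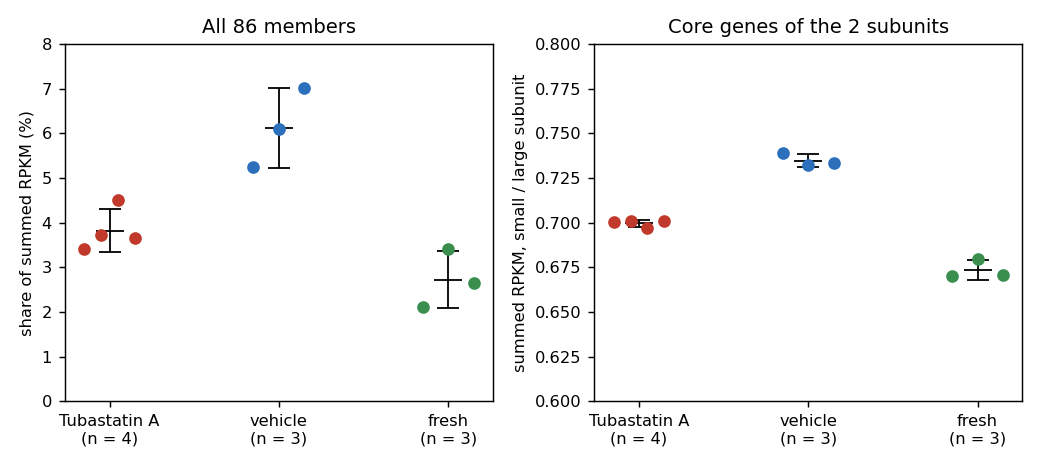
Left, the share of all RPKM taken by the 86 ribosomal protein genes in each library (%); right, summed RPKM of small-subunit genes over that of large-subunit genes, on an axis from 0.6 to 0.8. Points are libraries, bars mean and SD. Shares are highest in the 3 vehicle libraries (5.25% to 7.02%). The subunit ratio, drawn without the stalk genes, separates all groups, with vehicle at 0.732 to 0.739.

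Tubastatin A was compared with vehicle to find what the inhibitor changed within the same time in culture. Of the 86 members, 69 were lower in Tubastatin A, 1 was higher and 16 did not pass. Over all genes 29.7% were lower and 29.6% higher, and the median change was 0.02 over all genes against -0.79 over the members. By role, 39 of 43 large-subunit genes, 24 of 31 small-subunit genes and all 3 stalk genes fell, with medians of -0.82, -0.86 and -0.74. For 71 members every Tubastatin A library lay below every vehicle library, as it did for 33.8% of all genes, and for 1 member every one lay above (34.8% of all genes). By share of a library's RPKM the members counted 63 below and 1 above, against 29.8% and 39.3% of all genes.

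Among the stalk genes, Rplp0 had 720.5, 730.0, 824 and 752 RPKM in Tubastatin A and 969, 1120.0 and 1358 RPKM in vehicle libraries. It fell by 0.59 (SE 0.23, adjusted p = 0.047), with no overlap of the groups, a call lost when any 1 of 7 libraries was left out (-0.63 to -0.46). Rplp1, which with Rplp2 forms the flexible arms of the stalk that recruit elongation factors, had 219, 248, 289 and 247 RPKM in Tubastatin A against 376, 521 and 642 RPKM in vehicle libraries. It fell by 1.003 (SE 0.24, adjusted p = 0.0031), and Rplp2 fell by 0.74 (SE 0.21, adjusted p = 0.0085). Again no Tubastatin A library reached the lowest vehicle library.

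In the small subunit the lowest change belonged to Rps29, a zinc-binding protein of the subunit's head. Its levels were 47.7, 53.9, 66.2 and 53.3 RPKM in Tubastatin A and 111, 146 and 184 RPKM in vehicle libraries, a fall by 1.37 (SE 0.23, adjusted p = 0.00029). The groups were well apart. Rps13 fell by 1.31 (SE 0.22). Rpsa, a protein of the small subunit also known as a laminin receptor, had 109, 120.5, 146 and 118 RPKM in Tubastatin A and 193, 235 and 288 RPKM in vehicle libraries and fell by 0.94 (SE 0.19, adjusted p = 0.0012). Rps6, the target of the kinases S6K downstream of mTORC1, fell by 0.61 (SE 0.19, adjusted p = 0.017), a call lost without vehicle library 2 or 3 (-0.59 and -0.54).

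In the large subunit Rpl31, Rpl29 and Rpl39 had the lowest changes. Rpl31, which lies near the exit of the peptide tunnel, had 39.2, 45.0, 53.9 and 42.4 RPKM in Tubastatin A and 91.5, 124 and 138 RPKM in vehicle libraries, a fall by 1.35 (SE 0.22, adjusted p = 0.00021). Rpl29 had 97.0, 108, 129.8 and 109 RPKM in Tubastatin A against 237, 281 and 334 RPKM in vehicle libraries and fell by 1.34 (SE 0.18, adjusted p = 4.7e-05). Its highest Tubastatin A library stood far under its lowest vehicle library. Rpl39, which lines the tunnel near its exit, fell by 1.33 (SE 0.21). Rpl5 and Rpl11, which bind the 5S ribosomal RNA and, when free, the p53 ligase Mdm2, fell by 0.82 (SE 0.18, adjusted p = 0.0017) and by 0.75 (SE 0.19, adjusted p = 0.005).

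Some members did not pass. Rps27, a zinc-binding protein of the small subunit, had 62.7, 75.0, 87.7 and 74.8 RPKM in Tubastatin A and 62.6, 91.3 and 112 RPKM in vehicle libraries (-0.21, SE 0.22, adjusted p = 0.45), and the groups overlapped. Rps12 and Rpl10a stood at -0.29 (SE 0.21) and -0.33 (SE 0.17). The single member that rose, Rps4l, is given with the near copies.

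**Figure D2:**
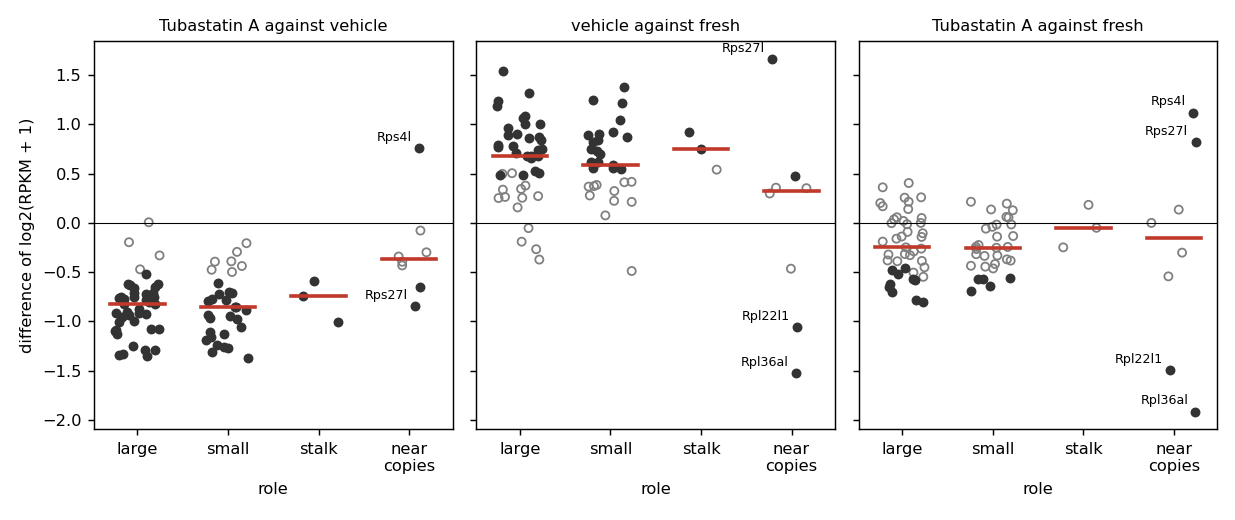
Differences of log2(RPKM + 1) of 85 members in the 3 comparisons, by role; filled points passed the limma test (adjusted p under 0.05), open points did not, and red bars are medians. Rps19bp1 is not drawn. In Tubastatin A against vehicle nearly all filled points lie below 0, with Rps4l at 0.76 above it; in vehicle against fresh the core genes have their filled points above 0; the near copies spread from -1.52 to 1.67.

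Vehicle was compared with fresh to find what 24 h of culture changed. Of the 86 members 54 were higher in vehicle, 2 were lower (Rpl22l1 and Rpl36al) and 30 did not pass. Over all genes 32.0% were higher and 35.0% lower, and the median change was -0.03 over all genes against 0.62 over the members. Among core genes 29 of 43 large-subunit, 20 of 31 small-subunit and 2 of 3 stalk genes rose and none fell. For 34 members all vehicle libraries lay above all fresh ones (31.8% of all genes), and for 3 they lay below (35.8%). By share of a library's RPKM these counts were 79 (50.2% of all genes) and 2 (22.8%). The count of 54 members higher by limma rests on single libraries. It was 34 without vehicle library 3, 38 without fresh library 1 and 74 without fresh library 2, with 4, 6 and 2 members lower. Counts over all genes are not given here for these fits. With libraries scaled to equal sums of RPKM, 80 members were higher and 2 lower, against 6280 and 2892 of all 12803 genes. The median was then 1.22 against 0.33 over all genes.

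Rpl29 rose most among the core genes at a mean log2 level of 4 or more, with 237, 281 and 334 RPKM in vehicle and 80.8, 124 and 87.3 RPKM in fresh libraries (1.54, SE 0.19, adjusted p = 1.7e-05). The groups were apart. Rpl38, known in the mouse for its part in the translation of Hox messengers, had 174, 244 and 294 RPKM in vehicle and 60.8, 133 and 97.2 RPKM in fresh libraries and rose by 1.32 (SE 0.26, adjusted p = 0.00084). Rps15 of the small subunit had 336, 443 and 488 RPKM in vehicle and 132, 249.8 and 162 RPKM in fresh libraries and rose by 1.25 (SE 0.23, adjusted p = 0.00044), again with no overlap. Rpl5 rose by 1.18 (SE 0.19), Rplp2 by 0.92 (SE 0.22), Rpsa by 0.90 (SE 0.20) and Rpl11 by 0.89 (SE 0.20). The fresh library with the highest level was library 2 in each of these genes.

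At the other end, Rps27 had 62.6, 91.3 and 112 RPKM in vehicle and 91.0, 164 and 119.5 RPKM in fresh libraries, a difference of -0.49 (SE 0.24, adjusted p = 0.089). The groups overlapped, and a fall passed without fresh library 1 (-0.69) and without vehicle library 3 (-0.67), while equal sums put the difference at 0.11, which did not pass. Rpl10a, a protein of the mobile L1 stalk, stood at -0.19 (SE 0.18), Rpl13 at -0.05 (SE 0.22) and Rps19, mutated in Diamond-Blackfan anaemia, at 0.08 (SE 0.21). With equal sums these 3 were higher in vehicle, by 0.40, 0.55 and 0.67. Rplp0 and Rps6 had 0.54 (SE 0.25, adjusted p = 0.075) and 0.37 (SE 0.21, adjusted p = 0.13) and passed without fresh library 2 (0.78 and 0.60) and with equal sums (1.14 and 0.97).

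Between Tubastatin A and fresh cells the order depended on how libraries were scaled. With the authors' scaling 17 members were lower in Tubastatin A (35.2% of all genes) and 2 were higher (29.8%), Rps27l and Rps4l, with a median of -0.25 against -0.03 over all genes. With libraries scaled to equal sums of RPKM, 46 members were higher and 2 lower, against 7004 and 2481 of all 12803 genes. The members' median was then 0.46. That scaling also moved the median of all genes to 0.43, so the members lay 0.21 below it with the authors' scaling and 0.04 above it with equal sums. For 13 members all Tubastatin A libraries lay below all fresh ones (33.3% of all genes), and for 2 above (28.0%). By share of a library's RPKM 36 members lay above (53.0% of all genes) and 2 below (18.1%). The count of 17 was also moved by single libraries, to 40 without fresh library 1 and 7 without fresh library 2. It was 8, 10 and 11 without Tubastatin A libraries 1, 2 and 4. For these fits too, counts over all genes are not given here.

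Under the authors' scaling Rpl21 of the large subunit had 24.9, 29.9, 35.1 and 29.3 RPKM in Tubastatin A and 38.9, 72.4 and 48.8 RPKM in fresh libraries, a fall by 0.78 (SE 0.21, adjusted p = 0.0054). No Tubastatin A library reached the lowest fresh library. Rps27 fell by 0.70 (SE 0.22, adjusted p = 0.016), Rpl27a by 0.70 (SE 0.19, adjusted p = 0.0064), Rpl22 by 0.65 (SE 0.18, adjusted p = 0.0077) and Rps29 by 0.64 (SE 0.23, adjusted p = 0.028), and with equal sums none of these 5 passed, Rps27, Rpl22 and Rps29 standing above 0. Rps27 was also lost without fresh library 2 (-0.48), and Rps29 when any 1 of 5 libraries was left out (-0.63 to -0.40). Rpl38 and Rpl5 had the highest differences of the core genes, 0.41 (SE 0.25) and 0.36 (SE 0.18), which did not pass with the authors' scaling but did with equal sums or without fresh library 2 (0.67 and 0.59).

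The members kept a common order of libraries within each group. Fresh library 2 was the highest fresh library in 86 of 86 members and fresh library 1 the lowest in 84, where 35.3% and 34.3% of all genes had these libraries there. Vehicle library 3 was highest in 83 members and vehicle library 1 lowest in 86, against 36.5% and 42.0% of all genes. Tubastatin A library 3 was highest and library 1 lowest in 79 members each, against 26.1% and 27.0% of all genes. The median coefficient of variation of a member between replicates was 11.7% in Tubastatin A, 20.3% in vehicle and 30.0% in fresh libraries. Over all genes it was 11.4%, 11.9% and 24.4%. Dividing each library by the median of its members took the members' values to 3.96%, 5.05% and 4.55%. This division takes out by design what the members share, and no other set of genes was divided in this way. The first library of the fresh group also stood apart in Fos, an immediate early gene, at 6344 RPKM against 2789 and 2137 in the others, and the part of that difference in these levels was not tested.

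**Figure D3:**
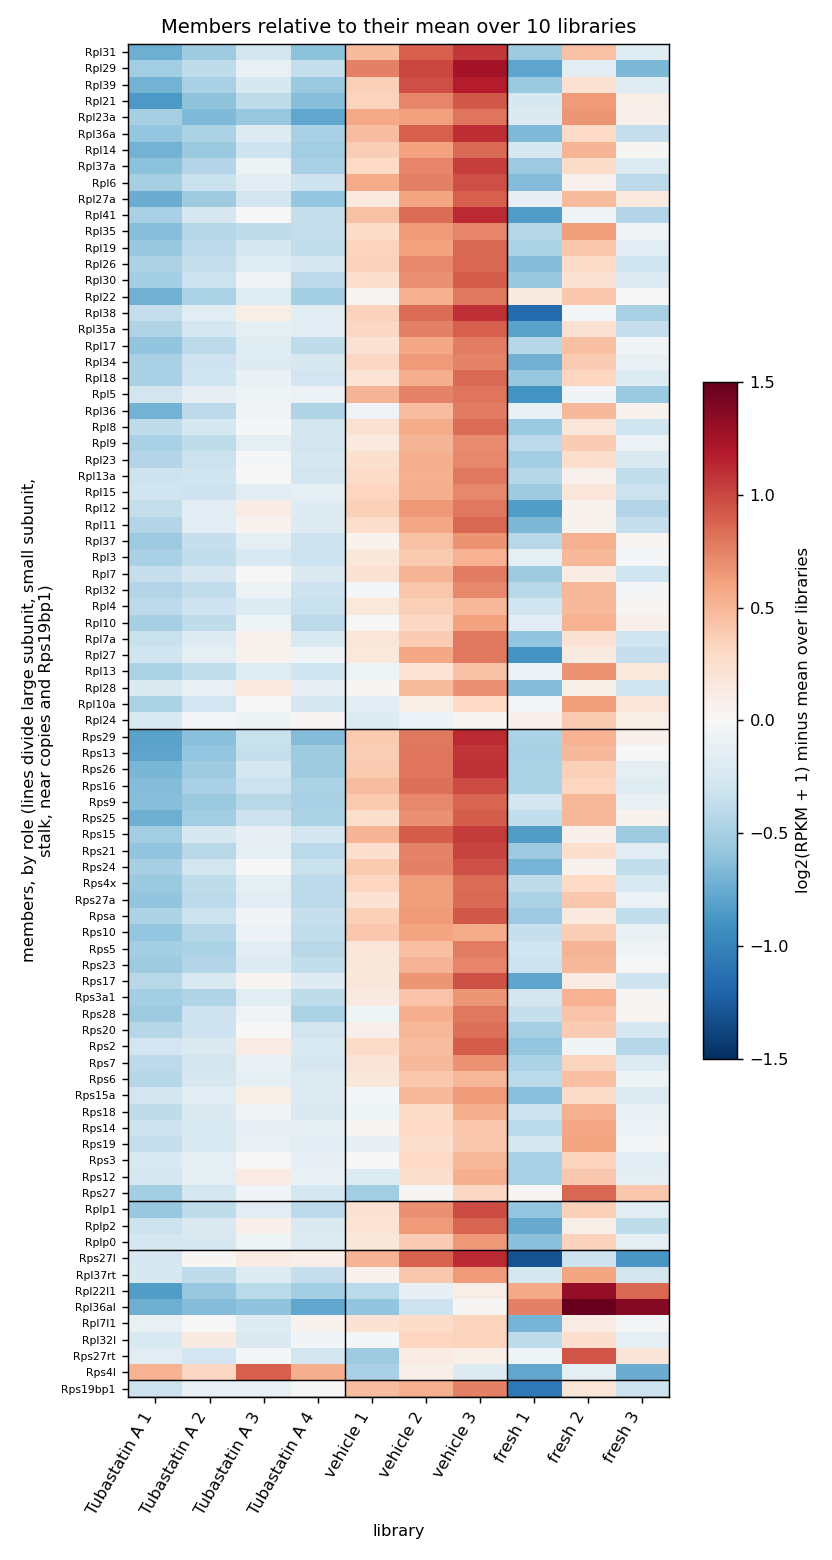
Members (down) in each library (across), as log2(RPKM + 1) minus the member's mean over the 10 libraries, from -1.5 (blue) to 1.5 (red); members are ordered by role and then by change, and a few are not drawn. Most core genes are blue in Tubastatin A and red in vehicle, rising in colour together in vehicle library 3 and fresh library 2, while Rpl22l1 and Rpl36al are red in fresh libraries and Rps4l is red in Tubastatin A.

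Because of this common spread, members were also set against the median of the members in the same library. This removes a scaling of the library, except at low levels, where the added 1 RPKM leaves part of it. Of the 86, 21 were lower relative to that median in Tubastatin A than in vehicle (6.82% of all genes) and 5 were higher (55.4%). With voom on recovered reads the balance was the opposite, with 6 lower and 21 higher. Counts over all genes are not given here for voom. With each member first centred on its own mean, 14 were lower and 16 higher, against 731 and 8290 of all 12803 genes. With and without centring, 14 passed as lower and 5 as higher. Among the 14 were Rpl14, Rpl21, Rpl29, Rpl31, Rpl36a and Rpl39 of the large subunit and Rps9, Rps13, Rps15, Rps16, Rps26 and Rps29 of the small subunit. Among the 5 were Rpl24, Rps27, Rps27rt and Rps4l, with Rpl24 and Rps27rt at low means of 1.08 and 9.10 RPKM. Relative to the median Rps29 changed by -0.69 (SE 0.15, adjusted p = 0.0011 in limma) and Rps27 by 0.48 (SE 0.15, adjusted p = 0.011), or by 0.77 with limma's voom on recovered reads.

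Between vehicle and fresh cells 9 members were higher relative to the median (8.13% of all genes) and 17 lower (51.1%), of which 9 and 16 passed in both forms. Among the 9 were Rpl5, Rpl6, Rpl29, Rpl38, Rpl41, Rps15 and Rps27l. Rps27 had the lowest relative change of the core genes at -1.15 (SE 0.16, adjusted p = 1.1e-05), so that it took a smaller part among ribosomal protein messengers in vehicle than in fresh cells. Between Tubastatin A and fresh cells 4 members were higher (16.8% of all genes) and 25 lower (23.0%). Of these, 4 and 12 passed in both forms. With voom 10 were higher and 14 lower, again without a count over all genes. The 4 higher in both forms were Rpl5, Rpl38, Rps27l and Rps4l. Rpl5 stood at 0.39 (SE 0.15, adjusted p = 0.049) and Rpl38 at 0.43 (SE 0.14, adjusted p = 0.024), and these calls were lost when any 1 of 7 libraries (Rpl5, 0.37 to 0.40) or of 5 libraries (Rpl38, 0.34 to 0.44) was left out.

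Several near copies departed from the common pattern. Rps27l, a second form of Rps27 that is a p53 target in human cells, had 182, 219, 236 and 229 RPKM in Tubastatin A, 308, 402 and 471 RPKM in vehicle and 87.0, 175 and 118 RPKM in fresh libraries. It fell by 0.85 in Tubastatin A against vehicle (SE 0.23, adjusted p = 0.0067) and rose by 1.67 in vehicle against fresh (SE 0.24, adjusted p = 6.7e-05) and by 0.82 in Tubastatin A against fresh (SE 0.23, adjusted p = 0.0071). Both cultured groups lay above the fresh group and did not overlap it or each other. Its ratio to Rps27 was 2.90, 2.92, 2.69 and 3.06 in Tubastatin A, 4.91, 4.40 and 4.22 in vehicle and 0.956, 1.06 and 0.987 in fresh libraries. This ratio, which needs no scaling between libraries, separated the 3 groups without overlap. In Tubastatin A against vehicle Rps27l stayed close to the members' median (-0.16, SE 0.13, adjusted p = 0.28 in limma) while Rps27 stood at 0.48. By level, Rps27 stood at -0.21 (SE 0.22). The ratio thus followed Rps27l by level and Rps27 relative to the members' median. The transcripts of both genes share no stretch of more than 11 bases, so their reads can be told apart. Rps27 does share up to 341 bases with Rps27rt, so its own level is less sure.

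The ratios of 6 near copies to their parent genes were tested with two-sided exact permutation tests in 18 comparisons, where the smallest p the design allows is 0.05714 with Tubastatin A and 0.1 between vehicle and fresh, and the lowest adjusted p over the 18 was 0.1286. No ratio could therefore pass 0.05, and overlap of the groups is given instead. For Rps27l the change of the log2 ratio was -0.64 in Tubastatin A against vehicle, 2.17 in vehicle against fresh and 1.53 in Tubastatin A against fresh.

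Rpl22l1 is a paralog of Rpl22 whose level rises in mice that lack Rpl22. It had 4.07, 5.12, 5.84 and 5.37 RPKM in Tubastatin A, 5.83, 7.29 and 8.69 RPKM in vehicle and 12.5, 21.5 and 15.4 RPKM in fresh libraries. It fell by 1.06 in vehicle against fresh (SE 0.20, adjusted p = 0.00046) and by 1.49 in Tubastatin A against fresh (SE 0.18, adjusted p = 2e-05), and fresh libraries were highest without overlap. Rpl22 itself had 13.3, 15.9, 19.7 and 15.5 RPKM in Tubastatin A, 23.1, 33.0 and 39.6 RPKM in vehicle and 24.8, 30.2 and 22.5 RPKM in fresh libraries. The ratio of Rpl22l1 to Rpl22 was 0.296 to 0.347 in Tubastatin A, 0.219 to 0.252 in vehicle and 0.502 to 0.713 in fresh libraries, again with no overlap.

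Rpl36al, a near copy of the X-linked Rpl36a, had 0.675, 0.771, 0.833 and 0.626 RPKM in Tubastatin A, 0.847, 1.24 and 1.81 RPKM in vehicle and 3.72, 7.18 and 6.16 RPKM in fresh libraries. It fell by 1.52 in vehicle against fresh (SE 0.20, adjusted p = 2.9e-05), while Rpl36a rose by 1.06 (SE 0.23, adjusted p = 0.0014). Its ratio to Rpl36a was 0.0267 to 0.0324 in Tubastatin A, 0.0184 to 0.0248 in vehicle and 0.175 to 0.240 in fresh libraries. At such low levels, and with 24.5% of its exon bases shared with another gene of its strand, the origin of its reads is uncertain.

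Rps4l, annotated as a transcribed processed pseudogene of Rps4x, was the member that rose in Tubastatin A against vehicle. It had 30.0, 25.8, 39.4 and 30.5 RPKM in Tubastatin A, 14.5, 21.9 and 18.0 RPKM in vehicle and 11.6, 18.7 and 11.9 RPKM in fresh libraries. Tubastatin A libraries lay above all others, with changes of 0.76 against vehicle (SE 0.19, adjusted p = 0.0049) and 1.12 against fresh (SE 0.19, adjusted p = 0.00029). Rps4x fell by 0.97 in Tubastatin A against vehicle (SE 0.19, adjusted p = 0.0008), and the ratio of Rps4l to Rps4x was 0.192 to 0.254 in Tubastatin A, 0.0575 to 0.0812 in vehicle and 0.0801 to 0.0870 in fresh libraries. The longest stretch both share is 38 bases, shorter than a read of 150 bp.

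Rps27rt shares up to 341 bases with Rps27, so reads within that stretch cannot be told apart, and its ratio to Rps27 overlapped between groups in all comparisons. Rpl7l1, a relative of Rpl7 that acts in the assembly of the large subunit, rose by 0.48 in vehicle against fresh (SE 0.19, adjusted p = 0.041), a call lost when any 1 of 8 libraries was left out (0.23 to 0.51), and its ratio to Rpl7 overlapped between groups as well. Rpl37rt, annotated as a transcribed processed pseudogene, fell by 0.66 in Tubastatin A against vehicle (SE 0.21, adjusted p = 0.017), a call lost without vehicle library 2 or 3 (-0.63 and -0.52). Rpl32l, a processed pseudogene, stood under 1 RPKM in every library and passed in no comparison. Rps19bp1, the member that is no ribosomal protein, fell by 0.72 in Tubastatin A against vehicle (SE 0.23, adjusted p = 0.018), lost without vehicle library 3 (-0.63), and rose by 0.98 in vehicle against fresh (SE 0.25, adjusted p = 0.0037).

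**Figure D4:**
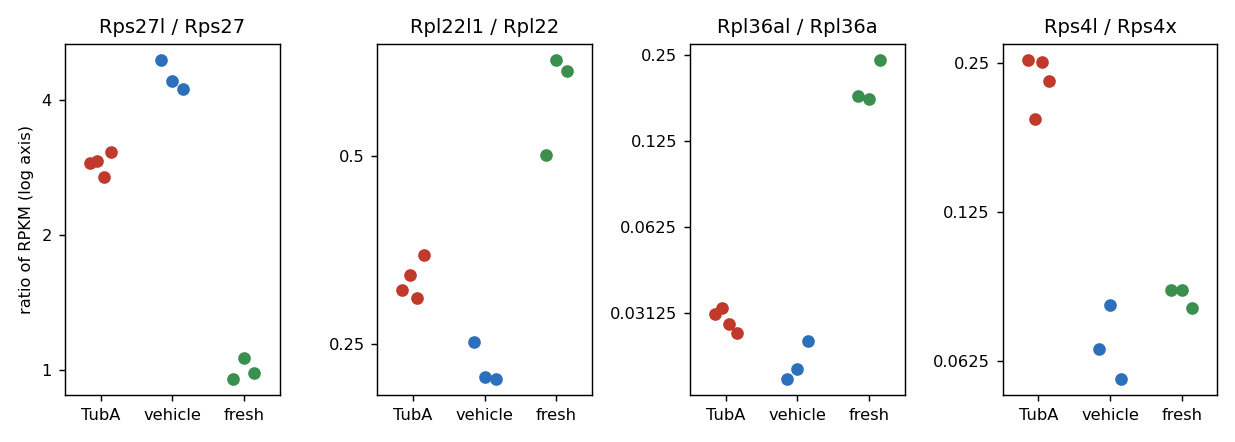
Ratio of RPKM of a near copy to its parent gene in each library, on log axes that differ between panels; TubA stands for Tubastatin A. The ratio of Rps27l to Rps27 is highest in vehicle (4.22 to 4.91) and near 1 in fresh libraries, those of Rpl22l1 and Rpl36al are highest in fresh libraries, and that of Rps4l to Rps4x is highest in Tubastatin A (0.192 to 0.254).

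A pair of ribosomal proteins that carry other names were measured as well. Rack1, a scaffold on the small subunit, fell by 0.83 in Tubastatin A against vehicle (SE 0.19, adjusted p = 0.0025) and rose by 1.27 in vehicle against fresh (SE 0.20, adjusted p = 0.00014). Fau, which encodes a small-subunit protein fused to a ubiquitin-like protein, fell by 0.73 in Tubastatin A against vehicle (SE 0.21, adjusted p = 0.0099) and had 0.51 in vehicle against fresh (SE 0.22, adjusted p = 0.063), which passed without fresh library 2 (0.79).

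Of 18 other genes with known TOP messengers, 13 were lower (29.7% of all genes) and none higher (29.6%) in Tubastatin A than in vehicle, with a median of -0.59. In vehicle against fresh 11 were higher (32.0% of all genes) and 1, the elongation factor Eef2, lower (35.0%), with a median of 0.69. In Tubastatin A against fresh 3 were higher (29.8% of all genes) and 4 lower (35.2%). Npm1, a nucleolar chaperone of ribosome assembly, had 138, 135, 145 and 132 RPKM in Tubastatin A and 350.0, 373 and 414 RPKM in vehicle libraries and fell by 1.46 (SE 0.19, adjusted p = 5e-05). It rose by 1.58 in vehicle against fresh (SE 0.21, adjusted p = 2.9e-05). Nap1l1, a histone chaperone, fell by 1.19 and rose by 1.56 in these comparisons (SE 0.14 and 0.15), and Eef1g of the elongation factor complex fell by 0.55 (SE 0.16), lost without vehicle library 3 (-0.45), and rose by 1.08 (SE 0.17). Tpt1, a growth-linked protein with a strong TOP messenger, did not pass in Tubastatin A against vehicle (-0.31, SE 0.21, adjusted p = 0.22).

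Of 24 chaperones and loading factors of ribosomal proteins, 14 were lower (29.7% of all genes) and 2 higher (29.6%) in Tubastatin A than in vehicle, with a median of -0.55. In vehicle against fresh 11 were higher (32.0% of all genes) and 2 lower (35.0%), with a median of 0.42. Sbds, which helps release Eif6 from the new large subunit, was among the exceptions. It rose by 0.68 in Tubastatin A against vehicle (SE 0.23, adjusted p = 0.025), a call lost when any 1 of 4 libraries was left out (0.62 to 0.72), and fell by 2.07 in vehicle against fresh (SE 0.25). A list of 5 genes held factors that keep ribosomes idle and also Eef2k, the kinase of the elongation factor Eef2. Of these, 4 were lower in Tubastatin A than in vehicle (29.7% of all genes), among them Serbp1 (-0.84, SE 0.16) and Eef2k (-0.62, SE 0.14). Habp4 alone was higher (0.94, SE 0.11, adjusted p = 1.5e-05), as were 29.6% of all genes.

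Of 17 genes of mTORC1 and TOP control, 4 were higher (29.6% of all genes) and 3 lower (29.7%) in Tubastatin A than in vehicle. In vehicle against fresh 5 were higher (32.0%) and 5 lower (35.0%), so these counts do not set the list apart from all genes. Larp1, the TOP-binding repressor, fell by 0.60 in Tubastatin A against vehicle (SE 0.15, adjusted p = 0.0042) and rose by 1.16 in vehicle against fresh (SE 0.16, adjusted p = 4.2e-05). Mtor itself stood at 0.10 (SE 0.20) and 0.42 (SE 0.21) and did not pass, the second passing without fresh library 1 (0.69). Of 12 genes of the MYC network 6 were higher (29.6% of all genes) and 2 lower (29.7%) in Tubastatin A than in vehicle. Myc, an activator of ribosomal protein genes, had 386, 368, 342 and 421 RPKM in Tubastatin A, 285, 288 and 313 RPKM in vehicle and 785, 1465 and 1290.0 RPKM in fresh libraries. It did not pass in Tubastatin A against vehicle (0.36, SE 0.21, adjusted p = 0.16), though the groups did not overlap and it passed without fresh library 1 (0.36), and it fell by 1.95 in vehicle against fresh (SE 0.22, adjusted p = 9.2e-06). Mycn fell by 1.28 in Tubastatin A against vehicle (SE 0.14, adjusted p = 9.3e-06).

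Of 15 genes of ribosome quality control 2 were higher (29.6% of all genes) and 2 lower (29.7%) in Tubastatin A than in vehicle. In vehicle against fresh 5 were higher and 5 lower, close to the 32.0% and 35.0% of all genes. Of p53, its ligases and its target p21, Mdm2 rose by 0.42 in Tubastatin A against vehicle (SE 0.14, adjusted p = 0.023), Trp53 fell by 0.33 (SE 0.13, adjusted p = 0.045) and Cdkn1a stood at -0.31 (SE 0.18, adjusted p = 0.16). The call of Mdm2 was lost when any 1 of 4 libraries was left out (0.39 to 0.41) and that of Trp53 when any 1 of 7 was left out (-0.38 to -0.28), and Cdkn1a passed without Tubastatin A library 2 (-0.45). In vehicle against fresh Cdkn1a fell by 1.10 (SE 0.19, adjusted p = 0.00031).

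Core genes with and without a pyrimidine run near the annotated start had close medians. In Tubastatin A against vehicle the median was -0.84 over the 28 genes with a run and -0.79 over the 29 without. In vehicle against fresh the medians were 0.69 and 0.66. For the stricter form they were -0.75 over 12 genes with it and -0.83 over 45 without in Tubastatin A against vehicle. In vehicle against fresh the stricter form gave 0.55 and 0.68. For the CTTCCGG letters the medians were -0.94 over 23 genes with them and -0.77 over 34 without in Tubastatin A against vehicle, and 0.82 and 0.64 in vehicle against fresh. Rpl31 and Rps27, both with a run among the sequences printed above, had -1.35 and -0.21 in Tubastatin A against vehicle.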

How the data were processed

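The deposited table holds RPKM per gene and library, computed by the authors; the submitters' processing notes name mm10 as the build and list STAR, Trim Galore, edgeR, Subread and its featureCounts, with no versions. RPKM times GENCODE M21 exon length came out as whole reads (tolerance 0.05 reads, all libraries) for 11635 genes (90.9% of the table) and for all 86 members, which gave depths and scaled sizes. A core member had at least 38 reads in every library. Levels were fitted as log2(RPKM + 1) with limma 3.58.1 in R 4.3.3, with a trend of variance, 1 model of the 3 groups and no filter, and adjusted over all 12803 genes. A second fit used log2 levels less the library's median of the members. Ratios of near copies were compared by exact permutation with scipy 1.17.1. The fit was tested on simulated data.

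Named genes were the 5 highest and 5 lowest changes per comparison at a mean log2 level of 4 or more, the 4 highest and lowest relative changes, the stalk genes, Rpsa, Rps6, Rpl5, Rpl11, the near copies, and up to 4 genes of each other list. Fos, Acta1, Rpl24, Rps10, Rpl13a, Rpl32l, Rpl37rt and Rps19bp1 were singled out once values were known, and most members counted relative to the median are listed. A few genes that the rule takes in are not reported here. Members and lists were chosen with earlier results of these data known. Rpl32l and Rpl37rt were placed among the near copies after the table was seen. Rps27 and the pseudogene-rich members share reads with copies, and use of strand is not given in the sources used here. Replicates are single animals. Libraries of equal replicate number were not treated as paired. Alternatives were pseudocounts, a filter, scalings, limma's voom on recovered reads, fits on the groups compared, no trend, a replicate block, and each library left out.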

Additional observations from a re-analysis of the deposited data

How the results depend on the processing

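The median of the members was below 0 in Tubastatin A against vehicle and above 0 in vehicle against fresh under every alternative run, and Tubastatin A against fresh was the comparison whose direction depended on scaling. Scaling to equal RPKM sums moved the median of all genes to 0.33 in vehicle against fresh, 0.43 in Tubastatin A against fresh and 0.09 in Tubastatin A against vehicle, and the share of higher calls in vehicle against fresh to 68.5% where it was 47.7%. The members' median became 1.22 in vehicle against fresh and 0.46 in Tubastatin A against fresh (46 higher, 2 lower). It became 1.11 and 0.38 (40 higher, 2 lower) when the members, mitochondrial and 10 most abundant genes were left out of the scaling. In Tubastatin A against fresh the first of these scalings called 7004 of all 12803 genes higher and 2481 lower. The second called 6683 and 2671. Upper quartile scaling gave 4 higher and 6 lower in Tubastatin A against fresh (4601 and 3851 of all genes). Relative log expression gave 11 lower (4210 of all genes). Single genes that changed sign were Mdm2 (0.49 and 0.38) and Rpl13 (0.55 and 0.44) in vehicle against fresh with these 2 scalings, and with equal sums Rpl10a in vehicle against fresh (0.40) and Rpl22 (0.037), Rps27 (0.021) and Rps29 (0.072) in Tubastatin A against fresh. The cause was not tested.

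Relative to the members' median, counts in Tubastatin A against vehicle were 21 higher and 6 lower with voom, 16 higher with centred members and 12 and 11 with both. The 17 lower in vehicle against fresh were 9 in a fit of both groups alone and 10 without a trend. In Tubastatin A against fresh, counts were 2 higher with a pseudocount of 5, 10 and 14 with voom and 2 and 16 without a trend. They were 14 and 12 with centred members and 15 and 11 with both. Over all 12803 genes the centred form called 8290 higher and 731 lower in Tubastatin A against vehicle. In Tubastatin A against fresh it called 3237 and 2385. Counts over all genes are not given here for voom and the other alternatives of this paragraph.

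With each library left out in turn, medians ranged from -0.94 to -0.66 in Tubastatin A against vehicle, from 0.42 to 0.85 in vehicle against fresh and from -0.44 to -0.01 in Tubastatin A against fresh. Counts were 1 to 1 higher and 54 to 77 lower, 34 to 74 higher and 2 to 6 lower, and 2 to 9 higher and 7 to 40 lower in these comparisons. Relative to the median they were 3 to 7 higher and 12 to 23 lower, then 7 to 9 higher and 10 to 17 lower. In the last comparison they were 2 to 4 higher and 15 to 27 lower. Counts over all genes are not given here for fits with a library left out.

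Libraries of equal replicate number correlated in their deviations at -0.19 to 0.39 and those of unlike number at -0.52 to 0.47, and 4 of 10 correlated best with their own number. The labels tie no animals or days to a number, so the libraries were not treated as paired. With a replicate block 72 members were lower in Tubastatin A than in vehicle, and 8 were higher relative to the median. The block moved no other count over the members by more than 1.5 times. Its counts over all genes are not given here. With 3 or 4 animals a group, exact tests of ratios could not pass 0.05.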
